A study of Mus musculus with 12 samples.

Results

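The core circadian clock loop genes were described here by their levels in RNA of Descemet membranes peeled from mouse corneas. The corneal endothelium is the single cell layer that lies on this membrane and pumps fluid out of the cornea. Stromal and some muscle markers were also high in this RNA, as given below. The 10 genes are *Arntl*, *Clock*, *Npas2*, *Per1*, *Per2*, *Per3*, *Cry1*, *Cry2*, *Nr1d1* and *Nr1d2*. They were picked by symbol as the genes of the known loop, and all 10 were among the 15838 genes for which the authors deposited results. The RNA came from Descemet membranes peeled off with their endothelium, and the mice were 10 weeks old. It was sequenced in 12 libraries, with 3 each from *Slc4a11*+/+ (WT) females, WT males, *Slc4a11*-/- (KO) females and KO males. KO mice are C57BL/6 with a targeted deletion of exons in *Slc4a11*, and the study's methods name WT littermates as controls. The paper describes 1 pair of membranes for each mouse, whereas the sample records describe pooled membranes, and the clock time at collection is not given in the sources used here.

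In the mammalian clock, the activators ARNTL (also known as BMAL1) and CLOCK, or its relative NPAS2, bind E-box sequences and switch on the *Per* and *Cry* genes. The PER and CRY proteins then gather and repress those activators, which closes the main loop over about a day. A side loop runs through the REV-ERB receptors encoded by *Nr1d1* and *Nr1d2*, which repress *Arntl* and compete with the ROR receptors for the same sites. Because the transcripts of most loop genes rise and fall over the day in phases that differ between the arms, a level depends on the hour of collection.

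The study compared KO with WT mice, males with females, and the KO effect between the sexes. The deposited tables hold, for each gene, the authors' own fold changes and p-values for these comparisons and 1 mean level over the libraries. The authors' comparisons are not used here, values per library were not analysed here, and no difference between KO and WT or between the sexes is therefore given for any clock gene. The values below are the authors' mean of log2 CPM, read counts scaled to the size of the library, which carries no error, so that no difference between genes could be tested against a spread between libraries. The mean mixes both genotypes and both sexes, and a mean on the log2 scale corresponds to a geometric mean in CPM. In a bulk sample, fewer cells that use a gene and less RNA per cell cannot be told apart.

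The E-box is the element through which the activators act, so the promoters of the members were searched for it first. The RefSeq promoter table (GRCm38.p6) holds windows from 250 bases before to 50 bases after a start site for 9 of the 10 members, all but *Per2*, which was not searched. The letters CACGTG, which read the same on both strands, were present in the windows of *Per1* and *Cry1*. The same letters were found in 8.09% of the 27025 genes with a window. Of these genes, 10954 had a mean level here, and 11.4% of those held the letters. The variant CACGTT, searched on both strands, was present for *Cry1*, *Cry2* and *Nr1d1*, against 5.44% of the 27025 and 6.34% of the 10954 genes. The sites are shown 5′ to 3′ on the strand of the gene, with the matched letters in capitals, to let the letters around the element be compared between a *Per*, both *Cry* genes and *Nr1d1*.
Per1 (E-box, chr11:69098774-69098797, plus strand): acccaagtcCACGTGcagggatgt
Cry1 (E-box, chr10:85185100-85185123, minus strand): gccggtggtCACGTGgggtgcatg
Cry1 (variant, chr10:85185119-85185142, minus strand): cacttcagaAACGTGaggtgccgg
Cry2 (variant, chr2:92434221-92434244, minus strand): catggtgggAACGTGagggggcgg
Nr1d1 (variant, chr11:98775391-98775414, minus strand): acagatctcAACGTGccggctgct
In *Cry1* the E-box began 60 bases and the variant 79 bases before the start site, so that both elements lay in 1 short stretch. The first base of the element lay 166 bases before the start in *Cry2* and 28 bases before it in *Nr1d1*. In *Per1*, which has 2 windows, it lay 166 bases before the more upstream of the RefSeq start sites, inside the gene as GENCODE annotates it.

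The D-box is bound by the output factors DBP, TEF and HLF, which activate through it, and by NFIL3, which represses. The letters TTATGTAA were found in *Per3* alone among the members with a window, at a pair of positions 205 and 158 bases before the start, and in 1.11% of the 27025 genes. The share was 0.69% of the 10954 genes with a mean level. The other D-box spelling, TTACGTAA, and the cyclic AMP response element TGACGTCA were present in 0 of the 9 members. Their shares were 0.13% and 2.03% of the 27025 genes, and 0.17% and 3.46% of the 10954 with a mean level. Sequence outside these windows was not searched.
Per3 (D-box, chr4:151044854-151044879, minus strand): acccgcgcgTTATGTAAggtactcgg
Per3 (D-box, chr4:151044807-151044832, minus strand): cgcccgcggTTATGTAAcccccgccg
The half-site AGGTCA, the core of the sites shared by REV-ERB and ROR receptors, was present on one strand or the other for *Arntl*, *Clock*, *Per1* and *Nr1d2*. It occurred in 18.1% of the 27025 genes and 14.9% of the 10954, which makes it the most common of the searched elements. *Clock* has 3 windows and *Arntl* has 2, and a match in any window was counted. A match is a description of these letters in these windows and not a measurement of binding.

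The members were ordered from the REV-ERB genes at the top to *Npas2* at the bottom, and the places between depended on the length used. Levels of different genes are compared per length, as CPM per kilobase (kb) of all annotated exons of the gene merged (GENCODE M21, GRCm38). On this scale the mean levels spanned 31.6-fold, from 48.3 CPM per kb for *Nr1d1* to 1.53 CPM per kb for *Npas2*. The median of the 10 genes was 3.32 log2 CPM per kb, against 1.79 for all 15824 genes with an annotated length. For the 12990 protein-coding genes among them the median was 2.19. Of the 10, 5 were above the upper quartile of all genes, 3 lay between the median and that quartile, and 2 were below the median. These places rest on merged exons, and ranks per kb of other lengths were not taken. Without division by length, *Arntl* was above 62.5% of genes and *Cry1* above 47.7%, each on the other side of the median.

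**Figure D1:**
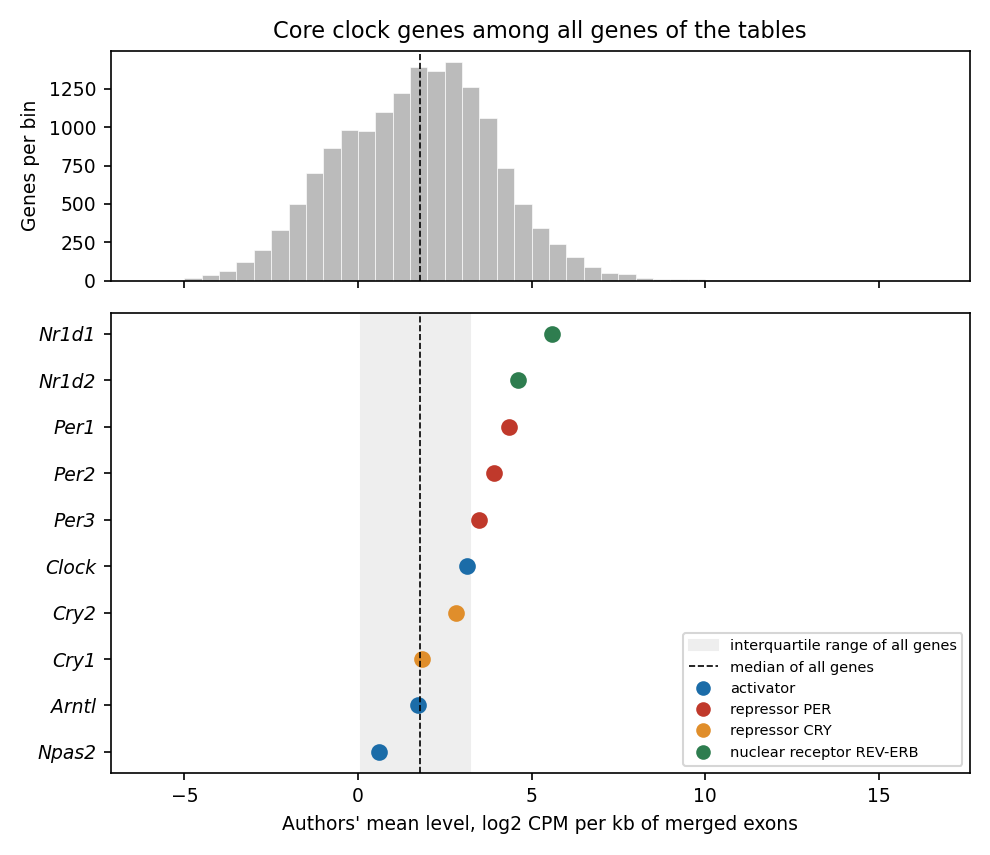
The upper panel is a histogram of the authors' mean level of all genes in log2 CPM per kb of merged exons, and the lower panel gives each core clock gene on the same axis, coloured by role, without error bars because the deposited mean has none. The dashed line is the median of all genes at 1.79 and the grey band their interquartile range, and *Nr1d1*, *Nr1d2*, *Per1*, *Per2* and *Per3* lie above the band while *Arntl* and *Npas2* lie left of the median.

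The REV-ERB receptors are heme-binding repressors of transcription. *Nr1d1* (ENSMUSG00000020889, chromosome 11, positions 98767932 to 98775333, minus strand) had a mean level of 7.22 log2 CPM. Per length it reached 5.60 log2 CPM per kb, above 96.3% of all genes. *Nr1d2* (ENSMUSG00000021775, chromosome 14, positions 18204054 to 18239127, minus strand) had 7.05 log2 CPM and 4.61 log2 CPM per kb, above 91.6% of genes. The pair were close in CPM per gene, and their ratio of 1.98 per kb came with a difference in annotated length, 3077 exonic bases for *Nr1d1* and 5409 for *Nr1d2*. The ratio was 1.93 per kb of the longest transcript and 1.05 per kb of coding exons, so the size of the gap, though not its direction, depended on the length used. Here and below, each length divides the same CPM of the whole gene. A value per kb of coding exons is therefore not a level measured in coding exons alone. The 3′ end of *Nr1d1* overlaps that of *Thra*, the thyroid hormone receptor alpha gene on the opposite strand, over 263 exonic bases, or 8.55% of the exons of *Nr1d1*. *Thra* itself had a mean of 7.65 log2 CPM. The library kit keeps the strand, but whether the authors counted by strand is not given in the sources used here, so reads in the overlap are uncertain.

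The PER proteins are the repressors whose build-up sets the timing of the loop. All 3 *Per* genes stood above the upper quartile of all genes. *Per1* (ENSMUSG00000020893, chromosome 11, positions 69095217 to 69109960, plus strand) had 6.84 log2 CPM and 4.34 log2 CPM per kb. *Per2* (ENSMUSG00000055866, chromosome 1, positions 91415982 to 91459324, minus strand) had 6.47 log2 CPM and 3.92 log2 CPM per kb. *Per3* (ENSMUSG00000028957), which is regarded as less needed for the rhythm than the other *Per* genes, lies on chromosome 4 at positions 151003652 to 151044665, minus strand. Its mean was 6.75 log2 CPM and 3.49 log2 CPM per kb. The *Per* genes thus fell within 1.81-fold of each other per kb, with *Per1* above 89.3%, *Per2* above 85.1% and *Per3* above 79.1% of genes. Their order was not fixed by the data, since *Per3* passed *Per2* when the length was that of the longest transcript, and passed *Per1* as well per kb of coding exons.

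The CRY proteins are the partners of PER and repress the activators directly. *Cry2* (ENSMUSG00000068742, chromosome 2, positions 92403646 to 92434043, minus strand) had 5.47 log2 CPM and 2.81 log2 CPM per kb, above 68.0% of genes. *Cry1* (ENSMUSG00000020038, chromosome 10, positions 85131700 to 85185064, minus strand) had 3.59 log2 CPM and 1.85 log2 CPM per kb, above 51.0% of genes. Among protein-coding genes alone, *Cry1* was above 43.3%. *Cry2* was therefore 1.95 times as high as *Cry1* per kb of merged exons, 2.81 times per kb of the longest transcript and 3.78 times per kb of coding exons. The direction was the same under the 3 lengths. The non-coding gene *D930015M05Rik* runs antisense to *Cry2* over 295 of its exonic bases, and had a mean of 0.20 log2 CPM.

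The activators covered the widest range of any arm of the loop. *Clock* (ENSMUSG00000029238, chromosome 5, positions 76209868 to 76304792, minus strand) had 6.93 log2 CPM, the third highest of the members per gene. With 13727 exonic bases it is also the longest member, and its level per length was 3.15 log2 CPM per kb, above 74.1% of genes. That level was below all *Per* genes. Per kb of coding exons *Clock* was above them, at 5.57 against 4.87 for *Per1*, 4.56 for *Per2* and 4.94 for *Per3*. *Arntl* (ENSMUSG00000055116, chromosome 7, positions 113207465 to 113314126, plus strand) had 4.63 log2 CPM and 1.72 log2 CPM per kb, above 48.6% of genes. *Npas2* (ENSMUSG00000026077), which can stand in for *Clock* as the partner of *Arntl*, lies on chromosome 1 at positions 39193731 to 39363236, plus strand. It had the lowest level of the members, 2.87 log2 CPM and 0.61 log2 CPM per kb, above 31.8% of genes.

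Between these alternative partners of *Arntl*, *Clock* was 5.81 times as high as *Npas2* per kb of merged exons. The ratio was 7.24 per kb of the longest transcript and 15.9 per kb of coding exons. *Clock* was also 2.71 times as high as *Arntl*, the obligate partner, and *Arntl* was 2.15 times as high as *Npas2*, both per kb of merged exons. Per kb of the longest transcript and of coding exons, these ratios were 2.03 and 3.66 for *Clock* to *Arntl*, and 3.57 and 4.34 for *Arntl* to *Npas2*. The order *Clock*, *Arntl*, *Npas2* was the same under the 3 lengths.

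**Figure D2:**
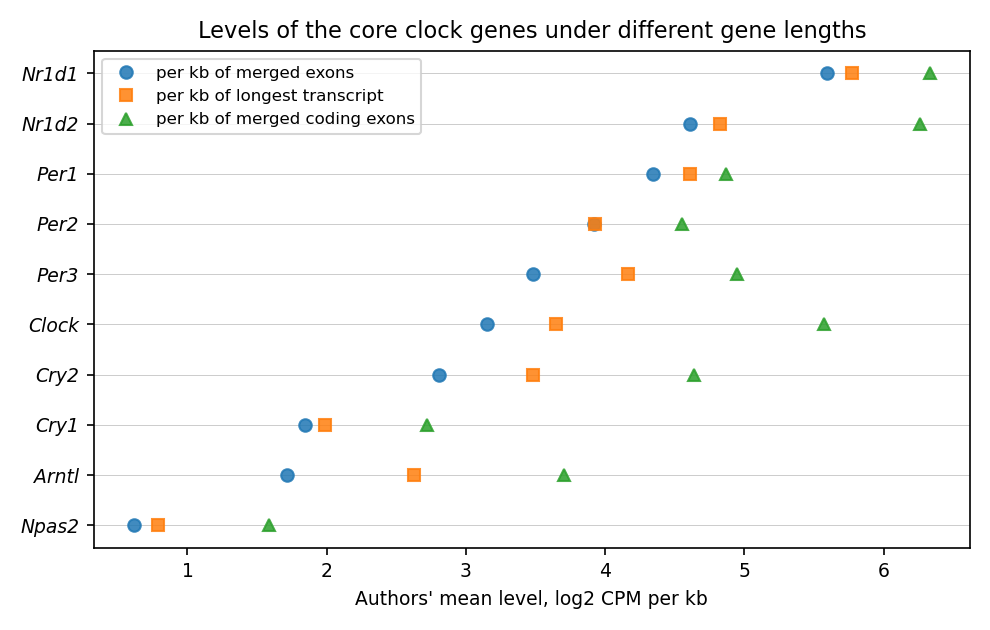
Each row is a core clock gene and each marker its authors' mean level in log2 CPM per kb, with circles for merged exons, squares for the longest transcript and triangles for merged coding exons, and no error bars because the mean has none. *Nr1d1* is the highest and *Npas2* the lowest gene for every marker, whereas *Clock* moves from 3.15 to 5.57 and *Arntl* passes *Cry1* for squares and triangles.

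The neighbours in the order were often close. *Cry1* and *Arntl* were 0.13 apart on the log2 scale per kb, and *Nr1d2* and *Per1* were 0.27 apart. The widest steps between neighbours were 1.10 from *Arntl* to *Npas2*, 0.98 from *Nr1d1* to *Nr1d2* and 0.96 from *Cry2* to *Cry1*. Without a spread between libraries, none of these steps can be said to exceed the error. Among annotated transcripts, the sequences of the members were mostly particular to them. Sequence outside annotated transcripts was not compared. Of all stretches of 50 bases, the read length, in the annotated transcripts of the members, none was shared between members. For *Arntl*, *Clock*, *Npas2*, *Per1*, *Per2* and *Cry1*, 0% were shared with the annotated transcripts of any other gene. The shares were 7.27% for *Nr1d1*, all with *Thra*, 5.13% for *Nr1d2*, all with a processed pseudogene on chromosome 19, 3.29% for *Cry2* and 0.22% for *Per3*.

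The other genes of the pathway were taken from a list of partners, of which 15 are described here and 14 had a value. Their median was 3.51 log2 CPM per kb, and 9 of the 14 lay above the median of all genes. Among the ROR receptors, which activate *Arntl* through the sites that REV-ERB occupies, *Rora* had 4.56 log2 CPM per kb, while *Rorb* had no value in the tables. *Arntl2*, the relative that can replace *Arntl*, was among the lowest at -2.12 log2 CPM per kb, above 4.16% of genes. On this scale *Rora* was near *Nr1d2* at 4.61, whereas per kb of coding exons *Rora* was higher, at 7.53 against 6.26 log2 CPM per kb. Of the exonic bases, 1671 of 13071 are coding in *Rora* and 1728 of 5409 in *Nr1d2*.

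Among the further repressors, *Bhlhe40* and *Bhlhe41*, whose products compete for E-boxes, had 3.77 and 3.26 log2 CPM per kb, and *Ciart*, a repressor of the activator pair, had 1.59. The casein kinases that mark PER for breakdown were at 4.04 for *Csnk1d* and 2.26 for *Csnk1e*, in log2 CPM per kb. Of the ubiquitin ligase parts, *Fbxl21*, which targets CRY, had -1.56 log2 CPM per kb. *Fbxw11* and *Btrc*, which act on PER, had 4.06 and 1.72 log2 CPM per kb.

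The output factors carry the rhythm of the loop to other genes. The D-box activators had 5.51 log2 CPM per kb for *Tef*, 4.96 for *Dbp* and 4.02 for *Hlf*. The D-box repressor *Nfil3* had -0.10 log2 CPM per kb, above 22.7% of genes. Among the loop genes and these partners, *Nr1d1* was the highest per kb of merged exons and *Tef* came next. Per kb of the longest transcript *Tef* was above *Nr1d1*, at 6.35 against 5.77 log2 CPM per kb, and per kb of coding exons *Tef*, *Rora*, *Hlf* and *Dbp* were all above it.

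**Figure D3:**
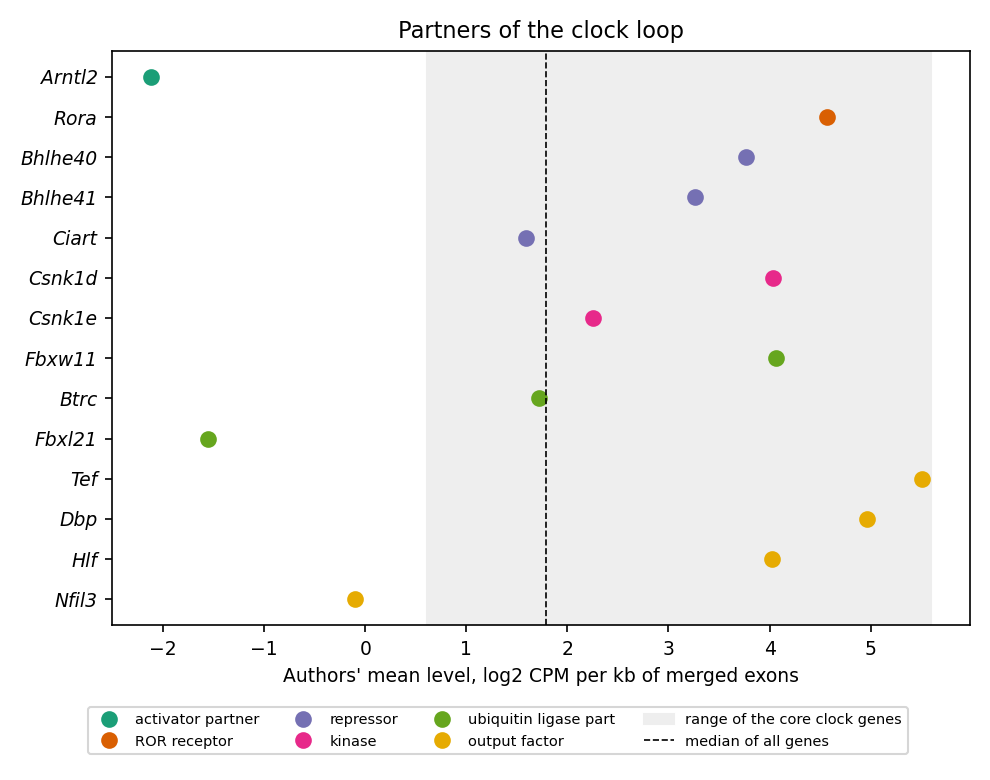
Each point is the authors' mean level of 1 partner gene in log2 CPM per kb of merged exons, coloured by role, with no error bars because the mean has none. The grey band is the range of the core clock genes from 0.61 to 5.60, and *Arntl2*, *Fbxl21* and *Nfil3* are the points left of it.

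The labelled tissue was checked against markers. All 8 genes of the corneal endothelium list lay above the upper quartile of all genes, from 6.14 to 11.0 log2 CPM per kb, *Slc4a11* among them with 8.39. The mean of *Slc4a11* covers KO and WT libraries together, so it does not check the genotype labels. All 4 stromal markers were above the upper quartile as well, from 7.20 to 9.34 log2 CPM per kb. Their median was 8.17, against 8.04 for the endothelium list. The 4 epithelial markers ranged from -1.26 to 3.99, the 5 markers of iris pigment cells had a median of -0.11, and the 2 of lens ranged from -0.32 to -0.05 log2 CPM per kb. The highest epithelial marker, *Krt5*, was above 85.9% of genes. Of the 4 muscle markers, 2 had a value, *Acta2* at 4.50 and *Myh11* at 4.76 log2 CPM per kb. These were above 90.7% and 92.7% of genes, and so also above the upper quartile. The 2 leukocyte markers were at -3.26 and 1.01 log2 CPM per kb. The share of each clock gene's level that came from stromal or other cells was not tested.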

How the data were processed

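RNAseq was performed by the authors on total RNA of Descemet membranes, 12 libraries in 4 groups of 3. Paired-end reads were aligned by the authors with HISAT2 (GRCm38/mm10). Their counts were scaled to CPM by TMM, and limma-voom was fitted in a 2-genotype by 2-sex design. Versions, the counter, the annotation release and the filter on low genes are not given in the sources used here. The authors deposited 3 tables of 15838 genes, each with a mean expression on the log2 scale (log2 CPM) and their own fold change, moderated t, p-value, adjusted p-value and log-odds. The mean was identical in the 3 tables and is the one column used. The comparison columns were not used.

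The tables give no totals, so depth is unknown and no floor can be given. No count, interval, test or replicate spread is given here for a mean level. Levels were divided by lengths from GENCODE M21 (GRCm38), which held 15824 of the 15838 genes, as merged exons, with the longest transcript, merged coding exons and no division as alternatives. Merged exons include every annotated isoform. Ranks were taken among all genes, with genes of at least 1 CPM and protein-coding genes as alternatives. Promoters came from RefSeq (GRCm38.p6), and stretches of 50 bases were compared on both strands over the GENCODE M21 transcripts. Helper functions were tested on small made-up inputs with known answers. Python 3.11.15, pandas 2.3.3, numpy 2.4.6 and matplotlib 3.10.9 were used. The members and lists were chosen with earlier results of these data known. Named genes are all members, 15 partners of the loop and the preset markers, with some partners of the preset rule not reported here, and *Thra* and *D930015M05Rik* were named after the overlaps were seen.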

Additional observations from a re-analysis of the deposited data

How the results depend on the processing

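The median of the 10 core clock genes was 3.32 log2 CPM per kb of merged exons and 3.79 per kb of the longest transcript. It was 4.76 per kb of merged coding exons, over 1.5 times as high in CPM per kb, which follows from the smaller lengths. With no division it was 6.61 log2 CPM, a different unit. For a single gene, the distance from its value per kb is set by its length alone. Per gene, the level moved by over 1.5 times for 3 of the 10 with the longest transcript and 9 with coding exons. In the order of the 10, 6 kept their place with the longest transcript and 3 with coding exons. The count of members above the median of all ranked genes was 8 among all genes, and 7 among genes of at least 1 CPM and among protein-coding genes. No paired analysis was possible because the means pool all libraries, and for the same reason the planned omission of each replicate, another pseudocount and another filter on low values were not run. No depth was known, so no level could be called undetectable.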
